A study of Rattus norvegicus with 23 samples.

Results

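The genes described here encode extracellular matrix and cell markers of hepatic stellate cells and fibroblasts. The list held 44 genes, of which 43 had a probe set on the array that names no other gene, out of 14217 genes measured. Thbs1 had none. Where a gene had several probe sets, the brightest one, by its mean on the 23 arrays, was used. The list was drawn up with earlier results of these arrays known, among them that stromal genes were higher in hepatocytes of the 3D model with Kupffer cells. Differences that involve those hepatocytes are therefore given as descriptions, with no p-value.

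The cultures were of rat liver cells, and their RNA was hybridized to Affymetrix expression arrays in 8 groups. Hepatocytes and liver sinusoidal endothelial cells (LSECs) came from the same isolations of female Lewis rats, and the Kupffer cells (KCs), the resident macrophages of the liver, were bought frozen. Hepatocytes were plated on rat-tail type 1 collagen and kept as monolayers (HM), as collagen sandwiches (CS), under a polymer layer with LSECs seeded on top (3DHL), or under the same layer with both LSECs and KCs (3DHLK). The cells of the 3D models were pulled apart on magnetic beads, first with the SE-1 antibody for LSECs and then with one to CD163 for KCs, and no antibody to hepatocytes is named in the methods. At day 12 there were 3 arrays each of HM, CS, 3DHL and 3DHLK hepatocytes and of 3DHL and 3DHLK LSECs, and 2 arrays of 3DHLK KCs, since no other sample passed the RNA quality check. KC monolayers were taken at day 3, with 3 arrays. Nothing in the labels ties a replicate to an animal or isolation. The p-values thus rest on how far these samples differ from each other, which can be technical.

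Stellate cells lie between hepatocytes and the sinusoidal endothelium, store vitamin A, and in culture or injury turn into contractile myofibroblasts that secrete collagen. Portal fibroblasts and the mesothelium of the liver capsule make many of the same matrix genes. A collagen fibril is built from procollagen chains, bound by small proteoglycans that set its diameter, and fixed by lysyl oxidases that crosslink it, while metalloproteases and their inhibitors govern its turnover.

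In bulk RNA, fewer cells of a type and less RNA per cell cannot be told apart. The fractions also did not match their labels in full. Albumin (Alb) lay between 14.33 and 14.66 on the log2 scale on all arrays except those of KC monolayers, where it was 9.33 to 11.45. Hepatocyte markers averaged 12.89 ± 0.02 (SD, n = 3) in 3DHL LSECs and 12.25 ± 0.06 (SD, n = 2) in 3DHLK KCs, against 12.56 ± 0.06 (SD, n = 3) in 3DHL hepatocytes. The 23 endothelial markers averaged 6.47 ± 0.04 in 3DHL LSECs and 6.39 ± 0.06 in 3DHL hepatocytes (SD, n = 3 each), and the sinusoidal receptor Stab2 was 5.32 to 6.44 on all 23 arrays. The macrophage receptor Adgre1 was 4.81 and 5.95 in 3DHLK KCs, against 12.84 to 13.00 in KC monolayers. What is said below of LSECs and KCs of the 3D models holds for the libraries with those labels.

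The gene list was set beside other stellate cell and fibroblast markers. Lrat, the enzyme that esterifies retinol in quiescent stellate cells, lay between 4.16 and 5.73 on all arrays, and Gfap and Ngfr reached at most 6.42 and 6.36. Lhx2 and Hand2, transcription factors of stellate cells, were 7.08 and 9.47 on average in 3DHLK hepatocytes, against 4.73 and 7.08 in 3DHL hepatocytes. Thy1, a surface protein of fibroblasts, was 9.98 against 7.63. Of 36 other markers of these cells, 15 were called higher in 3DHLK than in 3DHL hepatocytes, 0 lower and 21 not called, with a median log2 difference of 0.20, beside 7.72% of all genes called higher and 3.76% lower. These markers too were chosen with earlier results known, and the comparison holds the 3DHLK hepatocytes, so nothing is read from the share. Stellate cells and fibroblasts cannot be told apart from these genes.

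Promoter sequence was available from RefSeq (GRCr8) for 27 of the 43 genes. The table gives 1 transcript start per gene, and the 250 bases before that start are printed for 4 genes that stand for the patterns described below: Col1a2, which ranged widely among the groups and among replicates, Lum and Pdgfra, which were high only in 3DHLK hepatocytes, and Efemp1, which differed most among replicates of 3DHL hepatocytes. For Col1a2 the start used is the outer end of the gene in RefSeq, while for Lum, Pdgfra and Efemp1 it lies inside the gene's full span, so that all or part of the printed stretch is within the gene. Capitals mark letters of the CCAAT box (CCAAT), the TATA box (TATAAA), the GC box (GGGCGG), the AP-1 site (TGANTCA), the TEAD site (GGAATG) and the E box (CAGCTG), each on either strand.
Col1a2, chr4:33518307-33518556, plus strand: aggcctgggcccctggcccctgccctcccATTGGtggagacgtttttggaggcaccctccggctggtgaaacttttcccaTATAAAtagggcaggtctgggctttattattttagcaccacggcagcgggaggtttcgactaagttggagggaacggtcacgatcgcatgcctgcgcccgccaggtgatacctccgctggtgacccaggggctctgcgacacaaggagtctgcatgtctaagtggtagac
Lum, chr7:34245456-34245705, plus strand: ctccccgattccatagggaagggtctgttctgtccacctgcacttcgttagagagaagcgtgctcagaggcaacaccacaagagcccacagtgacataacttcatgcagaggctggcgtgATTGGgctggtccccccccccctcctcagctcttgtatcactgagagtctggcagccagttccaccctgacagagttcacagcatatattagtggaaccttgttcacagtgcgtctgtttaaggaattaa
Pdgfra, chr14:33408517-33408766, minus strand: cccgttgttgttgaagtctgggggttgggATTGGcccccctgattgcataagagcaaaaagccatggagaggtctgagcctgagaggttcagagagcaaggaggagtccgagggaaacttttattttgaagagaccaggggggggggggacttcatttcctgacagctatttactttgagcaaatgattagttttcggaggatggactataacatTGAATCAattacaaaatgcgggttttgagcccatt
Efemp1, chr14:106811614-106811863, plus strand: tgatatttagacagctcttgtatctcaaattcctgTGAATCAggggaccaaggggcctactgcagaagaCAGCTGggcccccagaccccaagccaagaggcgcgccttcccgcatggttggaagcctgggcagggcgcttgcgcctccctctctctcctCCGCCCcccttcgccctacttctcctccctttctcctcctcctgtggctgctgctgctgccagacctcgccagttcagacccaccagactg
Over these 250 bases, 17 of 27 genes held a GC box, beside 32.4% of 27457 rat promoters, and 9 held a CCAAT box, beside 34.3%. A TEAD site was in 5 genes (11.8% of all promoters), an E box in 5 (11.9%), an AP-1 site in 2 (6.36%) and a TATA box in 2 (13.1%). The motifs can overlap in position, and a match describes letters, not a site in use. Among the 27 genes, 19 were called higher in 3DHLK than in 3DHL hepatocytes. Of these, 7 held a CCAAT box, 0 a TATA box, 12 a GC box, 2 an AP-1 site, 4 a TEAD site and 3 an E box. The other 8, which were not called, held these in 2, 2, 5, 0, 1 and 2 genes. Col1a2, 1 of the 2 with a TATA box, had a higher mean in 3DHLK hepatocytes without a call. Nothing is read from these small counts.

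Matrix and stromal genes were highest in 3DHLK hepatocytes. Their group mean was the highest of the 8 groups for 29 of 43 genes, beside 12.1% of all genes, and for 25 genes all 3 arrays lay above every other array, beside 4.18% of all genes. The mean over the 43 genes was 10.33 ± 0.09 in 3DHLK hepatocytes, 8.68 ± 0.52 in CS, 8.56 ± 0.23 in 3DHL hepatocytes and 8.36 ± 0.51 in HM (SD, n = 3 each). It was 7.96 ± 0.18 in KC monolayers (SD, n = 3), 7.35 ± 0.03 in 3DHLK KCs (SD, n = 2), and 7.33 ± 0.03 and 7.21 ± 0.07 in 3DHL and 3DHLK LSECs (SD, n = 3 each). The arrays of 3DHLK hepatocytes stood above all others in this mean and those of the bead fractions below all others, while HM, CS and 3DHL hepatocytes overlapped. The 3DHLK hepatocytes gave rise to the list, and their rank is a description.

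**Figure D1:**
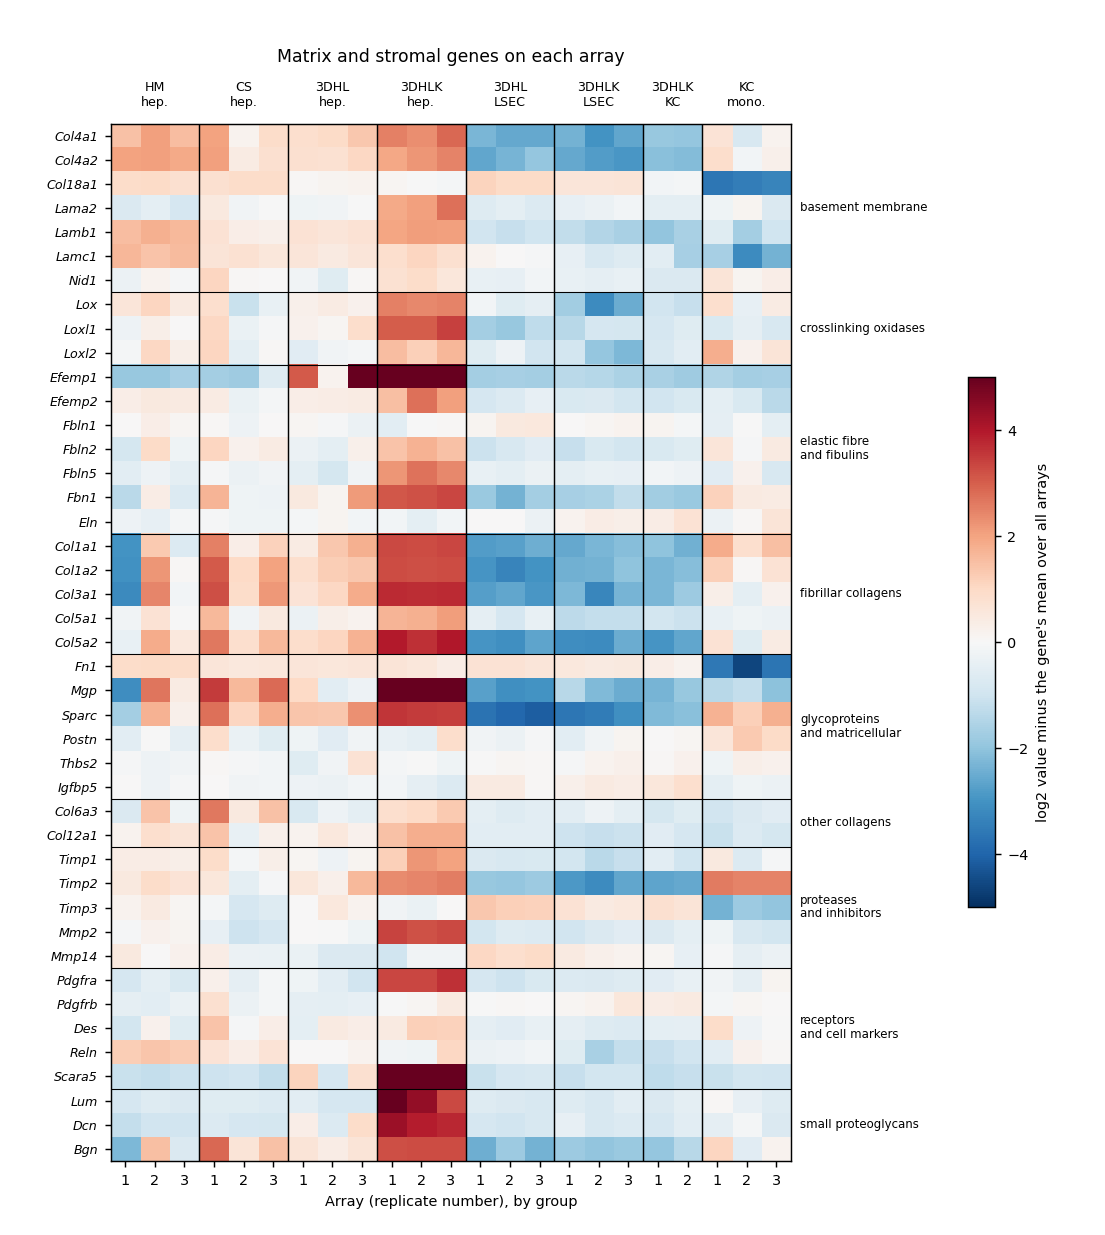
Log2 RMA value of each of the 43 genes (rows, grouped by role) on each of the 23 arrays (columns, by group), minus the gene's mean over all arrays; colours stop at 5 log2 units either way. The block of 3DHLK hepatocytes is red for most genes, the LSEC and 3DHLK KC columns are blue for most collagens, and the HM, CS and 3DHL hepatocyte columns differ among replicates.

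The remaining 14 genes peaked elsewhere. HM held the highest mean for Fn1, Reln and Lamc1, beside 9.13% of all genes, and in all 3 genes each HM array lay above every array of the other groups, beside 2.87%. Lamc1, the laminin chain shared by most basement membranes, was 11.83, 11.61 and 11.75 in HM and at most 11.27 elsewhere. 3DHL LSECs held it for Col18a1, Fbln1, Timp3 and Mmp14, beside 5.72%, and without Fbln1 the arrays of these genes were above all others, beside 0.886%. Timp3 was 11.40, 11.27 and 11.21 there, while no array of another group passed 10.86. 3DHLK KCs held it for Eln, Thbs2, Pdgfrb and Igfbp5, beside 16.2%, where only Igfbp5 (9.38 and 9.69) was above all other arrays, beside 3.43%. KC monolayers held it for Postn and Timp2, beside 22.4%, and CS for Col6a3, at 10.26, 8.12 and 9.10, beside 8.48%. None of the 43 genes was highest in 3DHL hepatocytes or in 3DHLK LSECs. Igfbp5 has 5 probe sets, Timp3 4 and Pdgfrb 3, and their ranks rest on the brightest of each. Over all arrays, values ranged from 5.58 to 6.78 for Eln, 6.19 to 7.52 for Thbs2, 4.66 to 6.55 for Postn and 6.71 to 7.74 for Fbln1.

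In 3DHLK hepatocytes 30 of 43 genes were called higher than in 3DHL hepatocytes and 0 lower (1 at an unadjusted p under 0.05 in limma). Over all genes 7.72% were called higher and 3.76% lower. Since this comparison was known when the list was made, nothing is read from the difference in share. The median log2 difference was 1.74, beside −0.08 over all genes, and 36 of 43 lay above 0.

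Fibrillar collagens were called higher in 4 of 5 cases. Col1a1 was 13.01, 12.96 and 13.05 in 3DHLK hepatocytes and 10.09, 11.04 and 11.48 in 3DHL hepatocytes, a log2 difference of 2.14 (SE 0.66). Col3a1 was 12.97, 12.95 and 13.00 against 9.94, 10.31 and 11.10, and Col5a2, a chain of collagen V that starts fibrils, differed by 2.64 (SE 0.44). The replicates of 3DHLK hepatocytes were within 0.09 log2 units for Col1a1, Col1a2 and Col3a1, and no array of 3DHL hepatocytes reached them. Col1a2 was 13.20, 13.17 and 13.22 against 10.78, 11.18 and 11.30, a log2 difference of 2.11 (SE 0.73). Col3a1 lost its call with a replicate block, housekeeping centring, a trended robust eBayes and without any 1 of the 6 arrays compared, and Col1a1 with the trended robust eBayes and without any 1 of them except replicate 3 of 3DHL hepatocytes. Col1a2 was not called, although its arrays did not overlap, and its SE came from a spread shared by all groups, in which HM replicates differed by 5.24. In the fit to only the arrays compared, which leaves out HM and CS, Col1a2 was called and Efemp1 was not, and the count was again 30. Col5a1 differed by 1.81 (SE 0.29), Col12a1, a collagen on the fibril surface, by 1.39 (SE 0.28) and Col6a3, a chain of the microfibrillar collagen VI, by 1.56 (SE 0.41), where the call of Col6a3 was lost without replicate 1 of 3DHL or replicate 3 of 3DHLK hepatocytes.

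**Figure D2:**
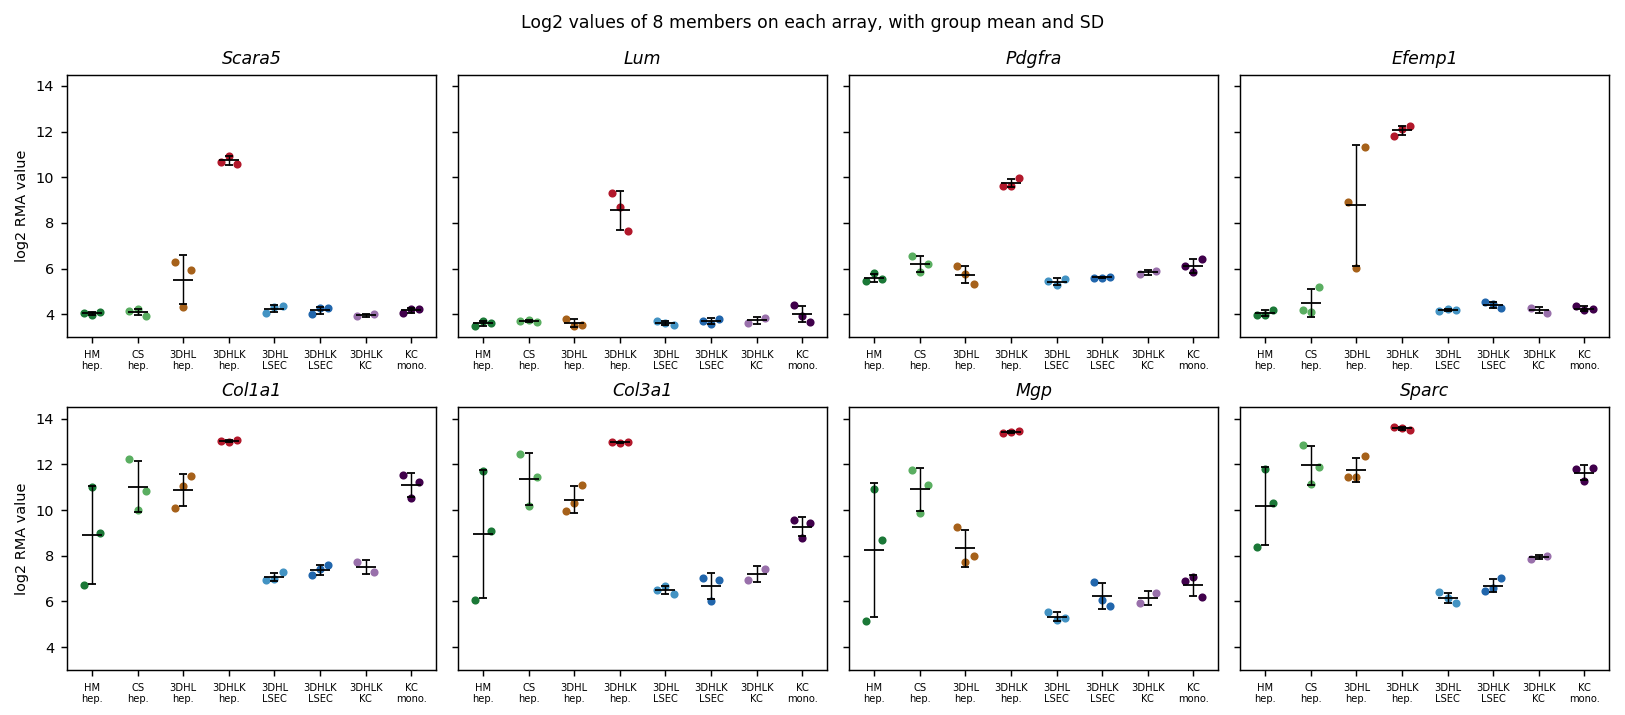
Log2 RMA value of 8 genes on each array (points) by group, with the group mean and SD (bars). Scara5, Lum and Pdgfra are high in 3DHLK hepatocytes and low elsewhere, Efemp1 spreads from 6.03 to 11.34 in 3DHL hepatocytes, and Col1a1, Col3a1, Mgp and Sparc spread widely in HM.

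Of the basement membrane genes, 5 of 7 were called higher: Lama2 by 2.37 (SE 0.21), Col4a1 by 1.53 (SE 0.35), Col4a2 by 1.34 (SE 0.29), Lamb1 by 1.34 (SE 0.19) and Nid1 by 0.98 (SE 0.21). Lamc1 (0.33, SE 0.26) and Col18a1 (−0.13, SE 0.10) were not called.

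Among matricellular and elastic fibre genes, matrix Gla protein (Mgp), an inhibitor of calcification, was 13.37, 13.43 and 13.45 in 3DHLK hepatocytes and 9.25, 7.72 and 7.997 in 3DHL hepatocytes. The log2 difference was 5.10 (SE 0.82), and no other array passed 11.76. Sparc, a collagen-binding glycoprotein, differed by 1.83 (SE 0.52), and lost its call without any 1 of the 6 arrays compared except replicate 3 of 3DHL hepatocytes. Fibulin 5 (Fbln5), which guides elastic fibre assembly, was 9.06 to 9.55 in 3DHLK hepatocytes and at most 7.04 on any other array. Fibrillin 1 (Fbn1), the core of microfibrils, differed by 2.29 (SE 0.47), Efemp2 by 1.74 (SE 0.24) and Fbln2 by 1.71 (SE 0.32). Efemp1, fibulin 3, was 11.82, 12.09 and 12.23 in 3DHLK hepatocytes and 8.93, 6.03 and 11.34 in 3DHL hepatocytes, so that the arrays of the latter covered most of the range between the groups. Elastin (Eln), Fbln1, Fn1, Postn, Thbs2 and Igfbp5 were not called, with log2 differences between −0.23 and 0.34.

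The small proteoglycans, which bind collagen fibrils, had some of the largest differences. Lumican (Lum) was 9.31, 8.71 and 7.64 in 3DHLK hepatocytes and between 3.48 and 4.38 on all other arrays, a log2 difference from 3DHL hepatocytes of 4.95 (SE 0.25). Decorin (Dcn) was 9.94, 9.56 and 9.42, against 5.96, 4.98 and 6.58 in 3DHL hepatocytes, and at most 5.54 on the arrays of other groups. Both stood far above every other array of the series. Biglycan (Bgn) had another pattern, at 12.34, 12.37 and 12.40 in 3DHLK hepatocytes, 9.77, 9.48 and 9.78 in 3DHL hepatocytes and up to 11.98 in CS. Below 3DHLK hepatocytes Bgn spread among replicates, by 3.74 log2 units in HM and 2.21 in CS, whereas Lum was high in 1 group only.

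All 3 crosslinking oxidases were called higher. Lysyl oxidase (Lox) was 12.18, 12.06 and 12.15 against 9.91, 10.07 and 9.90 in 3DHL hepatocytes. Loxl1, which acts on elastic fibres, was 10.25, 10.27 and 10.63 against 7.43, 7.34 and 8.12, and Loxl2 differed by 1.74 (SE 0.39). The groups did not overlap for any of the 3 genes.

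The metalloprotease Mmp2, which cleaves denatured collagen and collagen IV, was 10.89, 10.71 and 10.82 in 3DHLK hepatocytes and 7.55, 7.49 and 7.30 in 3DHL hepatocytes. Its other probe set gave a log2 difference of 0.08, where the main one gave 3.36, so Mmp2 rests on 1 of 2 probe sets. Of 31 further probe sets for members with several, 28 had the same call as the main one in this comparison. Of Mmp2, Col1a2 and Pdgfrb, 1 each did not. In the other comparisons 20 to 31 had the same call, with 20 for LSECs against hepatocytes of either 3D model. The metalloprotease inhibitors Timp1 and Timp2 differed by 1.80 (SE 0.27) and 1.64 (SE 0.26). Timp3 (−0.40, SE 0.18) and Mmp14 (0.15, SE 0.21) were not called.

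Among cell markers and receptors, 3 of 5 were called higher. Scara5, a ferritin receptor expressed by fibroblasts, was 10.68, 10.94 and 10.59 in 3DHLK hepatocytes and 6.29, 4.31 and 5.96 in 3DHL hepatocytes, a log2 difference of 5.22 (SE 0.29). On the arrays of the other 6 groups it stayed between 3.91 and 4.36. Pdgfra, a receptor for platelet-derived growth factor on fibroblasts, was 9.63, 9.64 and 9.95 in 3DHLK hepatocytes, and at most 6.54 on any other array. Neither gene overlapped with any other group. Pdgfrb, the PDGF receptor of stellate cells and pericytes, differed by 0.63 (SE 0.19), and its call was lost under housekeeping centring and without any 1 of the arrays compared except replicate 1 of 3DHLK hepatocytes. Its other probe sets, which are not in the counts, gave 2.11 and 0.12. Desmin (Des), an intermediate filament of stellate cells, was not called in this comparison, at 0.83 (SE 0.34), and reelin (Reln) was not either, at 0.15 (SE 0.26).

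Lists of related genes were set beside the same background of 7.72% of all genes higher and 3.76% lower. These lists and the marker lists below were chosen with earlier results known, so nothing is read from the shares. Of 53 other matrix genes, 33 were called higher in 3DHLK than in 3DHL hepatocytes and 0 lower, led by the microfibril protein Mfap5 (4.34, SE 0.22), Col8a2 (3.65, SE 0.23) and Ogn (3.63, SE 0.59), a small proteoglycan. Of 23 genes for collagen synthesis, 10 were higher and 0 lower, with P4ha3 (3.17, SE 0.27), a prolyl hydroxylase subunit, and Plod2 (2.46, SE 0.47), a lysyl hydroxylase, first. Their median was 0.37. Of 25 other metalloproteases and inhibitors, 11 were higher and 0 lower, with Adamts1 (3.17, SE 0.41) and Reck (2.88, SE 0.24), a membrane inhibitor of metalloproteases, in front. Of 23 contractile and mural genes, 7 were higher and 0 lower, among them the integrin Itga8 (3.84, SE 0.37) and smooth muscle actin Acta2 (2.15, SE 0.65). Of 22 genes of TGF-beta and PDGF signaling, 7 were higher, led by the coreceptor Tgfbr3 (2.11, SE 0.28), and Pdgfa was lower (−0.59, SE 0.14). None of 14 housekeeping genes was called either way by limma.

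Markers of some other cells were higher as well, beside the same 7.72% of all genes higher and 3.76% lower. Of 19 macrophage markers, 13 were higher in 3DHLK than in 3DHL hepatocytes and 0 lower, and their summed level, given as the mean of the list, was 7.65 to 8.06 against 6.61 to 6.92 over the arrays. Adgre1 was 5.59, 5.89 and 6.42 there, far under the KC monolayers. Of 10 mesothelial markers 4 were higher and 0 lower, with list means of 8.66 to 9.05 against 7.25 to 8.79. Of 23 endothelial markers 7 were higher and 0 lower, with list means of 6.72 to 6.84 against 6.35 to 6.46. The median log2 difference of the endothelial markers was −0.03. Calls in the other lists were few or went both ways. Of 12 cholangiocyte markers 2 were higher and 2 lower, with a median log2 difference of −0.18. Their list means were 9.32 to 9.37 against 8.86 to 9.10. Of 26 hepatocyte markers 1 was higher and 1 lower, and of 16 lymphocyte markers 1 was higher and 0 lower. The Y-linked Eif2s3y was 8.46, 8.18 and 8.19 in 3DHLK hepatocytes and 8.36 to 9.56 in KC monolayers, and 3.39 to 3.56 on all arrays of the other groups. It was 1 of 3 sex chromosome genes measured, with Xist and Uty. In 3DHLK against 3DHL hepatocytes 1 of the 3 was called higher, 1 lower and 1 not called. Their log2 differences lay between −0.57 and 4.76. In 3DHLK KCs against KC monolayers 2 of the 3 were higher and 1 lower. In KC monolayers Lum was 4.38, 3.93 and 3.68, Scara5 4.04, 4.23 and 4.23, and Pdgfra 6.11, 5.84 and 6.44. Other members were high in KC monolayers, with Timp2 at 13.26, 13.12 and 13.13 (13.01 to 13.19 in 3DHLK hepatocytes), Sparc at 11.25 to 11.84, Col1a1 at 10.54 to 11.55 and Col1a2 at 10.003 to 11.14. The part of each of these in the result was not tested.

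**Figure D3:**
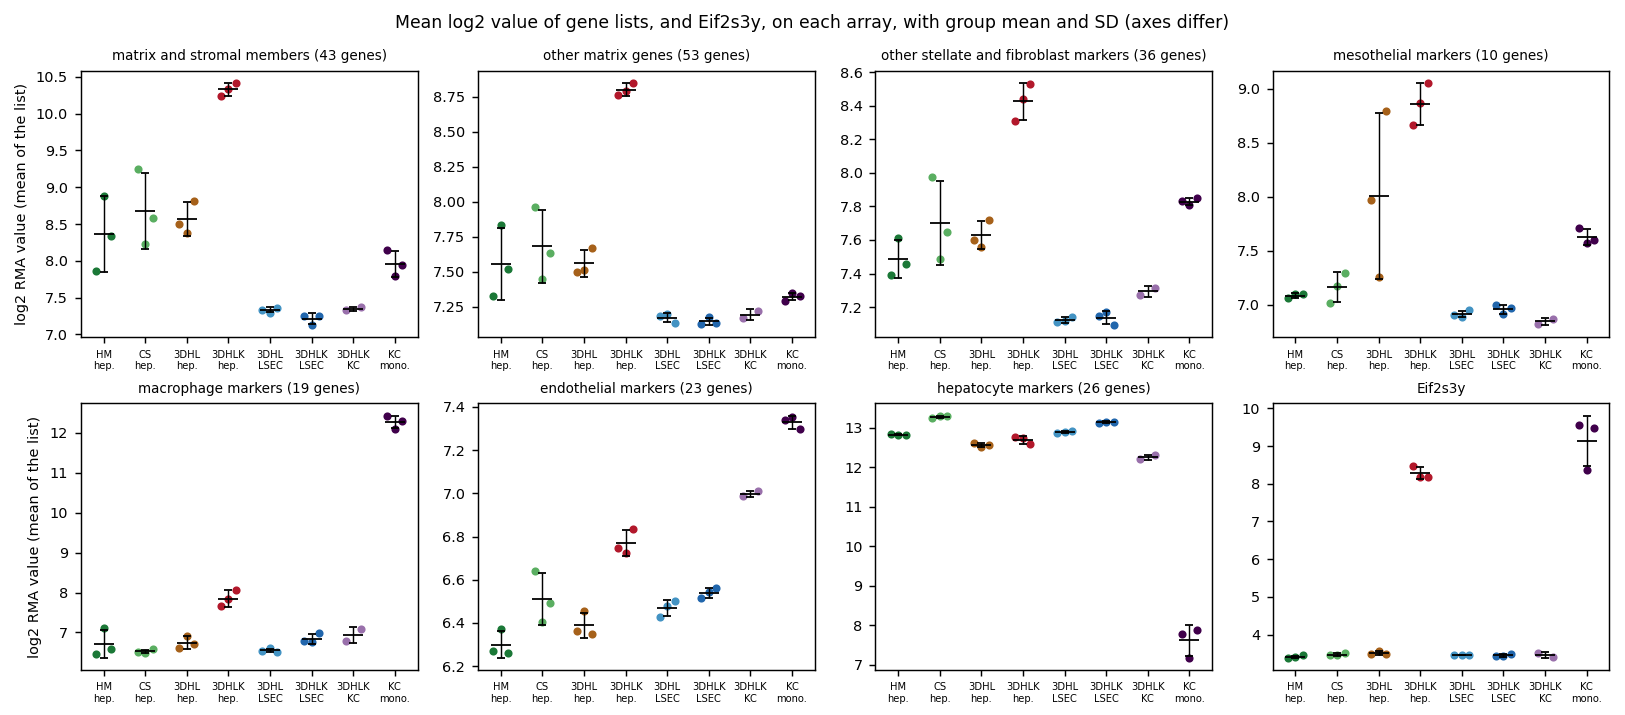
Mean log2 RMA value of 7 gene lists, and the value of Eif2s3y, on each array (points) by group, with the group mean and SD (bars); each panel has its own axis. In 3DHLK hepatocytes the lists of matrix, stellate cell and mesothelial genes are highest, macrophage markers are at 7.85 against 12.27 in KC monolayers, and Eif2s3y is at 8.18 to 8.46.

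The LSEC fraction did not show this difference between the 3D models. None of 43 genes was called higher in 3DHLK than in 3DHL LSECs (1 at an unadjusted p under 0.05 in limma), beside 3.58% of all genes, and 5 were called lower, beside 3.89%. The median was −0.03, and over all genes 0.04. Lox was 7.92, 6.51 and 7.19 in 3DHLK LSECs and 9.54, 9.08 and 9.20 in 3DHL LSECs, so that it was lower by a log2 difference of −2.06 (SE 0.37, adjusted p = 0.000948). The arrays did not overlap, and Lox lay the other way from its difference in hepatocytes. Timp2 (−0.997, adjusted p = 0.017), Reln (−0.90, adjusted p = 0.0373), Timp3 (−0.66, adjusted p = 0.0232) and Col18a1 (−0.38, adjusted p = 0.0198) were also lower by limma. Col18a1 and Timp2 lost their calls with the mean of probe sets, and Col18a1 and Timp3 with cyclic loess. Housekeeping centring removed those of Col18a1, Reln and Timp3. Without replicate 1 of 3DHL LSECs or without replicate 2 of 3DHLK LSECs, 1 gene, Lox, was called. The count was 3 without replicate 2 or 3 of 3DHL LSECs and 2 without replicate 3 of 3DHLK LSECs. In the fit to only the arrays compared 12 genes were lower and 3 higher.

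The changes of hepatocytes and LSECs between the models were set against each other gene by gene. The hepatocyte difference exceeded the LSEC difference for 40 of 43 genes, with 23 called, beside 6.81% of all genes, and 0 called the other way (1 at an unadjusted p under 0.05 in limma), beside 3.51%. This contrast holds the 3DHLK hepatocytes, so nothing is read from these shares. The side-by-side values are 5.22 and −0.07 for Scara5, 4.95 and 0.07 for Lum, 2.17 and −2.06 for Lox, and −0.40 and −0.66 for Timp3.

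**Figure D4:**
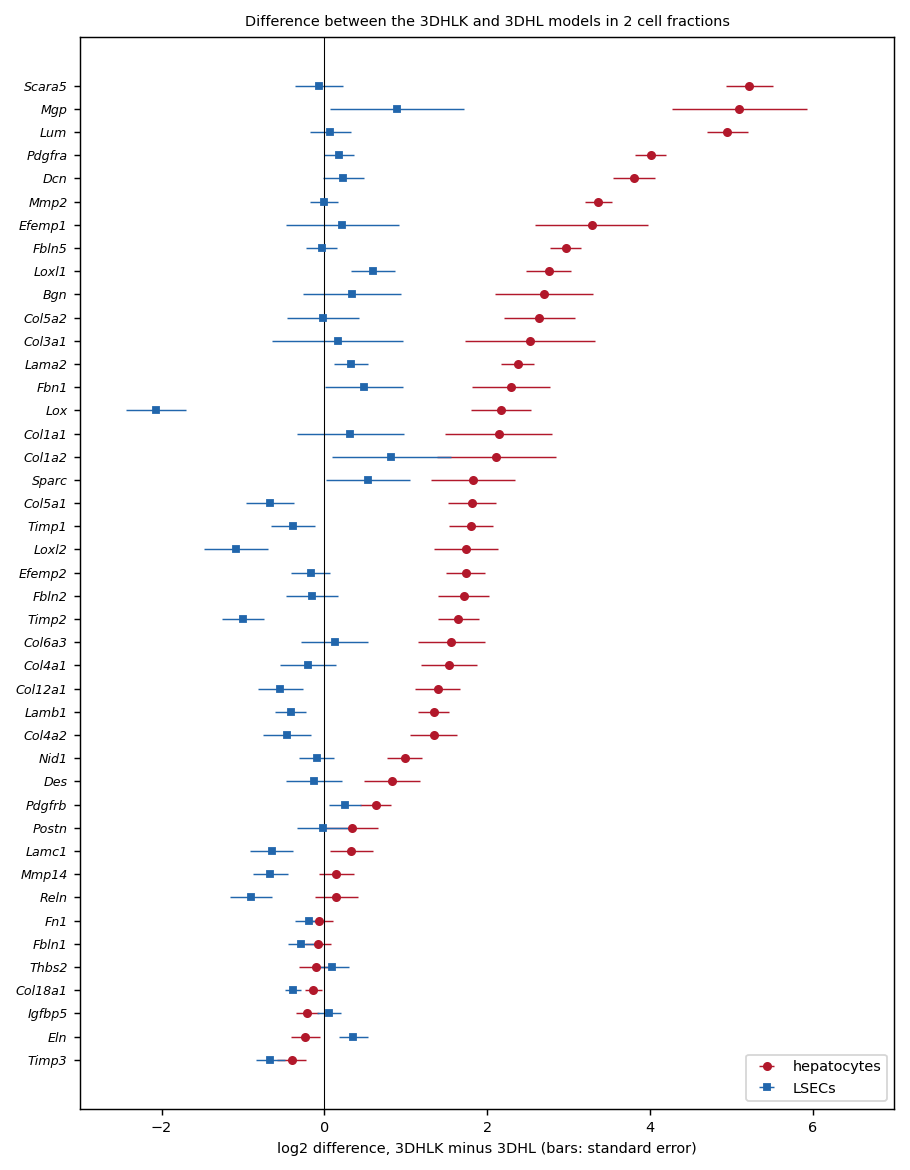
Log2 difference between the 3DHLK and 3DHL models (x axis, bars are standard errors) for each of the 43 genes (y axis), in hepatocytes (circles) and LSECs (squares). The hepatocyte values run from −0.40 for Timp3 to 5.22 for Scara5, while LSEC values lie between −2.06 and 0.89.

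Within the 3DHL model, where no KCs were added, 20 of 43 genes were lower in LSECs than in hepatocytes by limma, beside 21.9% of all genes, and 5 were higher, beside 18.5%. The median was −0.62, beside 0.02 over all genes. Sparc was 6.39, 6.13 and 5.94 in 3DHL LSECs and 11.47, 11.44 and 12.35 in 3DHL hepatocytes. Col1a2 was 7.02, 6.67 and 6.97 against 10.78, 11.18 and 11.30, a log2 difference of −4.20 (SE 0.73, adjusted p = 0.000148). Collagen IV chains were also far apart, with Col4a1 at 7.30, 7.03 and 7.03 against 10.41, 10.53 and 10.92, a log2 difference of −3.50 (SE 0.35, adjusted p = 1.27e-07). No LSEC array reached a hepatocyte array in these 3 genes. Lum and Fbln5, which were low in both fractions, had log2 differences of 0.01 (SE 0.25) and 0.12 (SE 0.19).

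The 5 genes that were higher in 3DHL LSECs were Mmp14, a membrane-bound metalloprotease (1.56, SE 0.21, adjusted p = 9.47e-06), Timp3 (0.98, SE 0.18, adjusted p = 0.000223), of whose other probe sets none was called, Col18a1, the source of endostatin (0.87, SE 0.10, adjusted p = 1.17e-06), Igfbp5 (0.53, SE 0.14, adjusted p = 0.00597) and Fbln1 (0.46, SE 0.16, adjusted p = 0.0282). Igfbp5 lost its call with the mean of probe sets, and Fbln1 with cyclic loess, housekeeping centring and without replicate 2 or 3 of either group. Mmp14 was 11.39, 11.21 and 11.33 in LSECs and 10.01, 9.63 and 9.62 in hepatocytes. These arrays did not overlap. Fibronectin (Fn1), which hepatocytes secrete into plasma, was 13.71, 13.73 and 13.62 in 3DHL LSECs and 13.61, 13.56 and 13.63 in hepatocytes, a log2 difference of 0.09 (SE 0.17). It lay between 13.18 and 13.96 on all arrays except those of KC monolayers.

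In the 3DHLK model 33 of 43 genes were lower in LSECs than in hepatocytes, beside 25.7% of all genes, and 5 were higher, beside 34.7%. Against 3DHLK KCs 33 genes were higher in hepatocytes, beside 25.9%, and 3 lower, beside 30.6%. Both comparisons share the hepatocyte arrays. The median log2 difference was −3.09 for LSECs against hepatocytes and 2.87 for hepatocytes against KCs. Efemp1 was 4.52, 4.43 and 4.27 in 3DHLK LSECs and 4.26 and 4.07 in 3DHLK KCs, against 11.82 to 12.23 in hepatocytes. Between LSECs and hepatocytes, 1 other probe set of Timp3 (−0.54, against 0.72) and that of Mmp2 (0.43, against −4.03) were called in the opposite direction.

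The 2 bead fractions of the 3DHLK model differed from each other in 2 of 43 genes. Col18a1 was higher in LSECs (0.73, SE 0.11, adjusted p = 6.96e-05), beside 9.73% of all genes, and Lox was lower (−1.42, SE 0.41, adjusted p = 0.0208 in limma), beside 5.35%. The median was −0.14. Lox lost its call without either KC array, and without replicate 2 or 3 of the LSECs. The count of lower genes was then 0, and it was 2 without replicate 1 of the LSECs. Without replicate 1 of the KCs, 2 genes were higher.

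KC monolayers held a part of these genes at high levels. Of 43 genes, 17 were lower in 3DHLK KCs than in KC monolayers, beside 20.8% of all genes, and 5 were higher, beside 44.5%. Timp2 was 8.03 and 8.10 in 3DHLK KCs and 13.26, 13.12 and 13.13 in monolayers, a log2 difference of −5.11 (SE 0.29, adjusted p = 7.94e-13). Col1a1 was 7.71 and 7.30 against 11.55, 10.54 and 11.22 (−3.60, SE 0.73, adjusted p = 0.000201). Sparc was 7.87 and 7.99 against 11.80, 11.25 and 11.84 (−3.70, SE 0.58, adjusted p = 9.14e-06). In these genes no array of 3DHLK KCs came near a monolayer array. The genes higher in 3DHLK KCs were Fn1 (4.19, SE 0.19), Col18a1 (3.34, SE 0.11), Timp3 (2.78, SE 0.20), Lamc1 (1.30, SE 0.29) and Igfbp5 (1.03, SE 0.16). For Lamc1 the 2 arrays of 3DHLK KCs differed by 1.13 log2 units, and those of KC monolayers by up to 1.49. Hepatocyte markers were also higher in 3DHLK KCs, in 26 of 26 genes, and all 19 macrophage markers were lower. Their part was not tested. Without replicate 1 of the 3DHLK KCs the count of lower genes was 11. The median of all genes was 0.27, and centring on housekeeping genes moved it to −0.16 with 23 lower members.

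Stromal genes were spread widely among replicates of HM, CS and 3DHL hepatocytes. In HM the highest and lowest replicate differed by over 2 log2 units for 8 of 43 genes, beside 0.218% of all genes, and by over 1 for 12, beside 0.935%. Mgp was 5.15, 10.94 and 8.67, Col3a1 6.08, 11.69 and 9.10, and Col1a2 6.92, 12.16 and 10.003. These were the 3 widest ranges among all 14217 genes in HM, at 5.80, 5.61 and 5.24. Replicate 2 was highest and replicate 1 lowest in all 3, and this order, 2 over 3 over 1, held in 28 of 43 genes, beside 24.6% of all genes. Acta2 (6.70, 11.11 and 9.21) and Tpm2 (7.90, 12.03 and 10.23), contractile genes of myofibroblasts, had the same order. Replicate 1 of HM, at 6.70 for Col1a1, lay under the 6.92 to 7.58 of the LSEC arrays.

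In CS the replicates differed by over 1 log2 unit for 23 of 43 genes, beside 1.74% of all genes, and by over 2 for 5, beside 0.127%. Replicate 1 was highest and replicate 2 lowest in 30 genes, beside 19.9% of all genes in that order. Col1a1 was 12.24, 10.02 and 10.84, and Bgn was 11.98, 9.77 and 10.59. Lum, at 3.72, 3.73 and 3.65, and Scara5, at 4.13, 4.21 and 3.93, did not take part in this spread. In 3DHL hepatocytes the widest range of all genes was that of Efemp1, 5.32, and replicate 3 was highest and replicate 2 lowest, an order found in 18 of 43 genes, beside 14.6% of all genes. Ranges over 1 were found in 9 genes there, beside 0.83%, and over 2 in 1, beside 0.148%. The next widest were Ogn (7.63, 5.11 and 9.57) and the mesothelial gene Upk1b (8.18, 6.26 and 10.43), in the same order, as was Msln (9.20, 7.44 and 10.60). Col1a1 in these replicates was 10.09, 11.04 and 11.48, in another order. These orders and ranges were noticed in the data and carry no test. In 3DHLK hepatocytes 5 genes had a range over 1, beside 1.7% of all genes. Such ranges were found in 5 genes in 3DHLK LSECs, beside 0.457%, 1 in 3DHLK KCs, beside 0.436%, 13 in KC monolayers, beside 16.6%, and 0 in 3DHL LSECs, beside 0.176%.

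**Figure D5:**
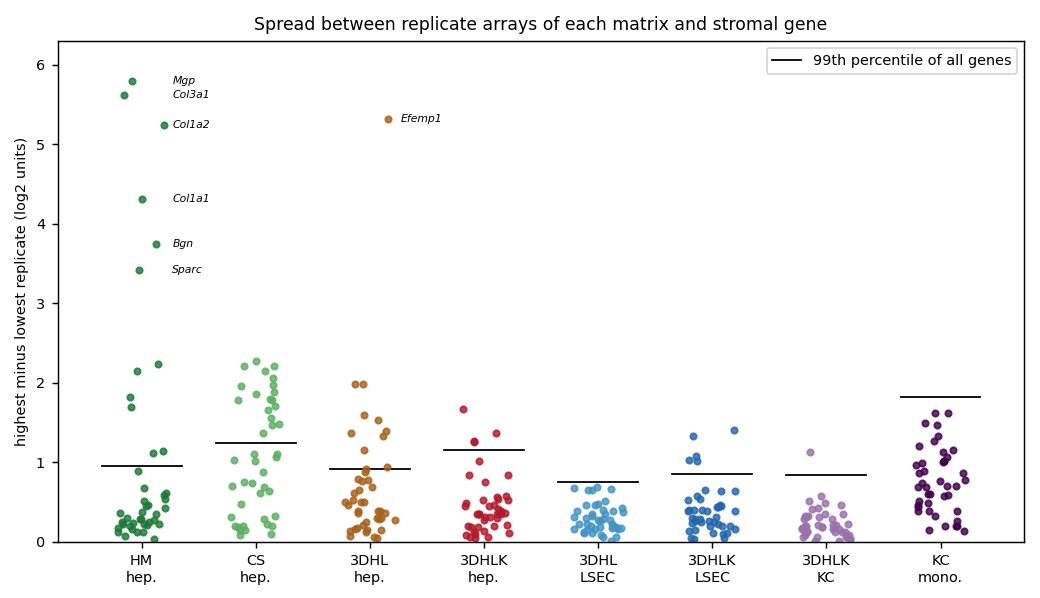
Highest minus lowest replicate, in log2 units, for each of the 43 genes (points) in each group, with the 99th percentile of the same range over all genes (lines). In HM 3 genes pass 5 log2 units, in 3DHL hepatocytes Efemp1 stands alone at 5.32, and in the LSEC groups no gene passes 1.5.

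The comparisons of hepatocyte cultures without KCs rest on these replicates. CS against HM gave 11 of 43 genes higher, beside 11.1% of all genes, and 6 lower, beside 10.7%. Mgp (2.65, SE 0.82, adjusted p = 0.0238), Col3a1 (2.41, SE 0.80, adjusted p = 0.0346) and Col1a2 (2.29, SE 0.73, adjusted p = 0.0284) were the largest by limma, and in all 3 the arrays of HM and CS overlapped. Without replicate 1 of CS, 0 genes were called higher, without replicate 1 of HM 1, without replicate 3 of HM 4 and without replicate 3 of CS 5. In the fit to only the arrays compared 2 were. Lamb1, a laminin chain of basement membranes, was 10.09, 9.71 and 9.61 in CS and 10.92 to 11.17 in HM, a log2 difference of −1.23 (SE 0.19, adjusted p = 5.19e-05). Its arrays did not overlap. Mmp2 (−0.86, SE 0.17, adjusted p = 0.00072) and Lama2 (0.79, SE 0.21, adjusted p = 0.00815) did not overlap either, but the other probe set of Mmp2 was not called. The count of lower genes was 3 without replicate 1 or 3 of HM or without replicate 3 of CS, and 9 without replicate 1 of CS.

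Hepatocytes of the 3DHL model were higher than HM in 4 of 43 genes, beside 7.04% of all genes, and lower in 6, beside 4.7%. Efemp1 was 8.93, 6.03 and 11.34 against 3.97, 3.96 and 4.19, a log2 difference of 4.73 (SE 0.69, adjusted p = 7.7e-05). All 3DHL arrays lay above all HM arrays. Scara5 (1.48, SE 0.29, adjusted p = 0.00172), Fbn1 (1.48, SE 0.47, adjusted p = 0.046) and Dcn (1.22, SE 0.25, adjusted p = 0.00283) were higher as well, though Fbn1 lost its call under most alternatives, cyclic loess and housekeeping centring among them. The mesothelial markers Upk1b (3.79, SE 0.56), Msln (2.61, SE 0.46) and Wt1 (1.20, SE 0.20) were higher in the same comparison, 3 of 10 in all, with list means of 7.25 to 8.79 against 7.06 to 7.10, and their part was not tested. The genes that were lower were Reln (−1.23, SE 0.26, adjusted p = 0.00346), Col4a2 (−1.11, SE 0.29, adjusted p = 0.0147), Lamb1 (−0.97, SE 0.19, adjusted p = 0.00139), Lamc1 (−0.97, SE 0.26, adjusted p = 0.0171), Mmp14 (−0.85, SE 0.21, adjusted p = 0.0108) and Col18a1 (−0.75, SE 0.10, adjusted p = 2.71e-05). Lamb1, Lamc1, Col4a2 and Reln were called lower than HM in both CS and 3DHL hepatocytes, in comparisons that share the HM arrays. Lamb1 kept both calls under all alternatives run, while Lamc1 and Col4a2 lost each of theirs without certain single arrays and Reln lost that in CS without any 1 of the 6 arrays compared. Without replicate 2 of HM the count of higher genes was 9, and without replicate 1 of HM or replicate 2 of 3DHL hepatocytes the count of lower genes was 3. Without the KC monolayers 7 were higher.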

How the data were processed

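The authors processed the arrays in R with RMA (background correction, quantile normalization, summary of probes), and the deposited values are log2 expression per probe set. They checked array quality with Simpleaffy. No version of RMA is given in the sources used here, and the table holds no detection calls, so signal over background is unknown, and precision is limited by how many arrays each group has. Array medians were 7.41 to 7.53. Of 31099 probe sets, 20826 name 1 gene and were used, 436 name several, 9780 name none here and 57 are controls. Comparisons used limma 3.58.1 under R 4.3.3 (lmFit on 8 group means, contrasts, eBayes), with Benjamini-Hochberg adjustment over 14217 genes and calls at 0.05, with no filter on low values. The code was tested on simulated data. The members and the gene lists were chosen with earlier results of these data known. Every member was to be named, with up to 10 of the largest calls each way per comparison, up to 3 per other list and fixed cell markers. The text gives fewer in several comparisons and lists, so the genes named there are not full lists. Genes described for their spread between replicates were chosen after their values were seen. Alternatives were a fit to the arrays compared, a replicate block, the mean of probe sets, a filter at the 30th percentile, cyclic loess, housekeeping centring, a trended robust eBayes, leaving out the KC monolayers and leaving out each array. Promoters came from RefSeq GRCr8. Python 3.11.15 with matplotlib 3.10.9 drew the figures.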

Additional observations from a re-analysis of the deposited data

Results flagged for a closer look

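The difference between the 3DHL and 3DHLK models was larger in hepatocytes than in LSECs for 23 of 43 genes by the call rule of the limma interaction contrast. This contrast holds the 3DHLK hepatocytes, whose levels were known when the list was made, so the values are descriptions and support nothing. The hepatocyte difference minus the LSEC difference, on the log2 scale, was largest for Scara5 (5.29), Lum (4.87), Lox (4.23), Mgp (4.21), Pdgfra (3.82), Dcn (3.57), Mmp2 (3.37), Efemp1 (3.06), Fbln5 (3.00) and Loxl2 (2.82). In Lox and Loxl2 the LSEC difference lay below 0, at −2.06 and −1.08, and in the others it was between −0.07 (Scara5) and 0.89 (Mgp). Mmp2 rests on 1 of 2 probe sets, and Efemp1 lost its call under most alternatives.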

How the results depend on the processing

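Over 31 settings, 208 calls of single genes gave 2704 values with the same direction and call, 224 that lost the call and 0 that reversed. The 30 genes higher in 3DHLK than in 3DHL hepatocytes became 23 to 31 over the alternatives, with 23 among the 33 genes left by the filter. In the fit to only the arrays compared, CS gave 2 genes higher than HM, 3DHLK LSECs 4 lower than KCs and 3 higher and 12 lower than 3DHL LSECs, and the interaction 1 lower. A trended robust eBayes gave 7 higher in CS, and centring on housekeeping genes gave 2 lower in 3DHLK than in 3DHL LSECs. The filter gave 2 higher in 3DHL hepatocytes than in HM, Col1a1 and Sparc, which were not called without it. The 4 genes called higher without the filter were removed by it and not tested. With the mean of probe sets, LSECs exceeded hepatocytes in 3 genes of the 3DHL model and 2 of the 3DHLK model. Without the KC monolayers 7 genes were higher in 3DHL hepatocytes than in HM, 9 were lower in 3DHLK than in 3DHL LSECs and the interaction gave 1 lower. The cause of the other changes was not tested.

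Leaving out each array in turn gave 0 to 13 higher and 3 to 9 lower in CS than in HM, 3 to 9 higher and 3 to 6 lower in 3DHL hepatocytes than in HM, and 11 to 16 lower and 4 to 7 higher in 3DHLK KCs than in monolayers. It gave 1 to 2 higher and 0 to 2 lower in 3DHLK LSECs than in KCs, and 1 to 5 lower and 0 higher in 3DHLK than in 3DHL LSECs. The hepatocyte difference between 3D models gave 25 to 28, and the interaction 19 to 24. Without 1 of the 2 KC arrays, the lone array is assumed to vary like the other groups.

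Over 77 pairs of same-numbered arrays the correlation of deviations was −0.36 to 0.34 with a median of −0.01. Of these, 13 pairs were over 0.1. With so few arrays per group, such correlations cannot decide whether same-numbered samples share an isolation or culture, which remains unknown. With a replicate block, 29 genes were higher in 3DHLK than in 3DHL hepatocytes, 9 higher and 8 lower in CS than in HM, and 15 lower in 3DHLK KCs than in monolayers.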
